A study of Canis lupus familiaris with 25 samples.

Results

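Malignant prostate tissue of dogs was compared with non-malignant prostate tissue by RNA-Seq. Of the 25 samples in the series, 18 were used, namely every sample that its labels describe as tissue with 1 of these diagnoses, and no aspirates were used. Histopathology had placed PT-1 to PT-9 among the carcinomas (9 malignant tissues) and PT-10 to PT-18 among normal to hyperplastic glands (9 non-malignant tissues), so that the control group joins healthy glands with enlarged ones. The tissues were taken after death, and a minimum RNA integrity was required for sequencing. The study drew part of its prostate tissues from a tissue bank, and the labels used here do not tell which tissues these were. The dogs with malignant tissue were 8 to 12 years old (median 9), and those with non-malignant tissue 1 to 16 years old (median 6). The mean ages differed by 2 years (two-sided exact permutation test, p = 0.259, 9 dogs in each group; adjusted p = 0.346 over 4 measures of age and library quality). Neutered dogs were found in the malignant group alone, where they made up 6 of 9, and every control dog was intact (neutered: PT-2, PT-3, PT-5, PT-6, PT-7 and PT-9). Neutering and diagnosis can therefore not be told apart in the 6 neutered dogs, and PT-1, PT-4 and PT-8 were the 3 intact dogs with a tumour. The dogs belonged to many breeds, no sample label links 1 tissue to another, and each tissue was treated as an independent replicate. The deposited files of 7 malignant and 4 non-malignant tissues share a name prefix of unknown meaning, which no fit carried as a term.

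The glandular epithelium of the prostate secretes the proteins of the prostatic fluid under the control of androgens from the testis. In the dog, the main secreted protein is an esterase of the kallikrein family, encoded by KLK2, and neutering removes most androgens and leads to a shrunken gland with little secretion. Carcinoma of the canine prostate arises spontaneously and is also found in neutered dogs.

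The total count on genes lay between 4455090 and 5932349 in the malignant libraries (median 5276947) and between 4258267 and 6594032 in the non-malignant libraries (median 5002318). The depth did not separate the groups, and the mean difference was -38025 counts (two-sided exact permutation test, p = 0.900, 9 tissues in each group). Reads that the counting assigned to no gene made up 59.2% to 61.7% of the tallied reads in malignant and 58.8% to 68.8% in non-malignant tissue, with the highest value in PT-17 (mean difference -2.03 percentage points, adjusted p = 0.250, two-sided exact permutation test, 9 against 9). As a check of the labelled tissue, KLK2, KLK4 and ACPP, which encode secreted products of the prostatic epithelium, had at least 287 counts each in all 9 non-malignant tissues. Markers of stroma, vessels, leukocytes and urothelium were not examined. The files do not pair Ensembl IDs with gene names, and the reference table used here matched none of the IDs. In bulk tissue, fewer cells of a type and less RNA per cell cannot be told apart.

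In the genome-wide comparison, 12144 genes passed the filter on low counts and were compared in a quasi-likelihood fit (edgeR). Differentially expressed genes (DEGs) were those whose p, adjusted by the procedure of Benjamini-Hochberg (FDR), was under 0.00001, a strict threshold that the study applied with DESeq2. Of the genes tested, 489 (4.03%) were up-regulated DEGs and 456 (3.75%) were down-regulated DEGs in malignant tissue. At an FDR under 0.05, 3832 genes (31.6%) were higher and 3112 genes (25.6%) were lower in malignant tissue. A total of 883 genes (7.27%) were higher in every malignant tissue than in any non-malignant tissue, and 860 genes (7.08%) were lower in every malignant tissue. Among the DEGs, 445 of the 489 up-regulated and 440 of the 456 down-regulated genes had no overlap between the groups.

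The size of the changes was large for the DEGs and modest for most other genes. The median absolute log2 fold change was 3.61 in up-regulated DEGs (quartiles 2.38 and 4.93) and 2.59 in down-regulated DEGs (quartiles 1.79 and 4.02). The smallest change among the DEGs was 1.07 in up-regulated and 1.03 in down-regulated genes, so that each DEG changed by more than 1 on the log2 scale. A change of more than 5 was reached by 117 up-regulated and 76 down-regulated DEGs. Over all genes tested, the median log2 fold change was 0.12, the quartiles were -0.67 and 0.97, and 7034 genes (57.9%) stayed below an absolute value of 1. The DEGs included abundant genes, since 142 of the up-regulated and 177 of the down-regulated DEGs had a mean of at least 100 CPM in 1 of the groups, CPM being counts scaled to a common library size.

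**Figure D1:**
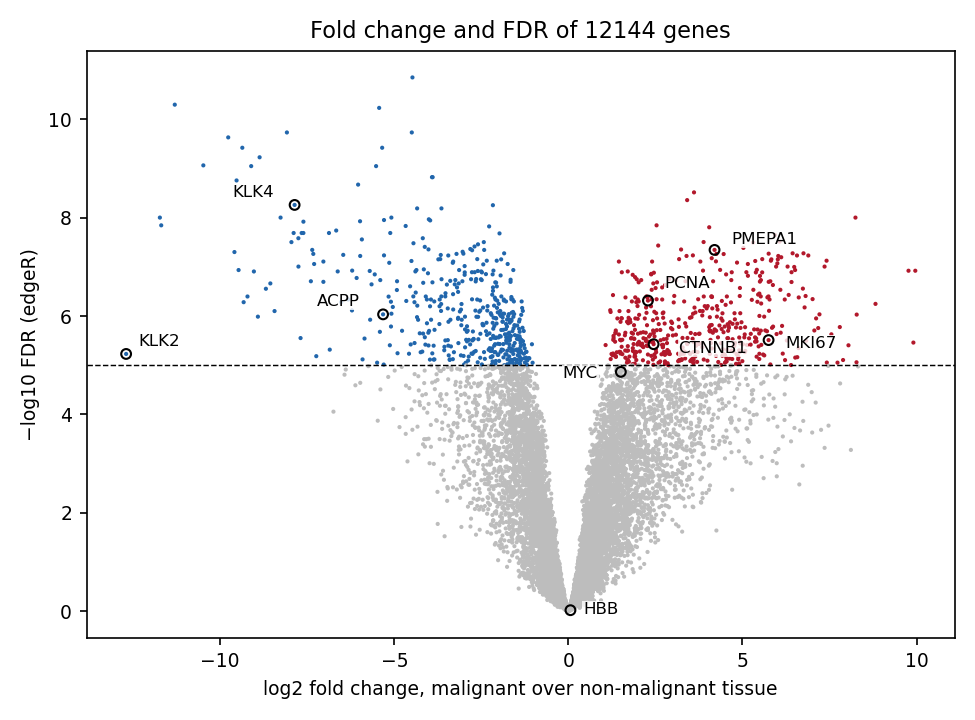
Log2 fold change of malignant over non-malignant tissue (x axis) against the negative log10 of the FDR from edgeR (y axis) for the 12144 genes tested, with up-regulated DEGs in red, down-regulated DEGs in blue and the dashed line at the FDR of 0.00001. KLK2 lies farthest to the left at -12.70 and close to the line, MYC lies just below the line, and HBB lies near 0 on both axes.

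The number of DEGs depended on the tool and on single samples. DESeq2 called 2019 up-regulated and 1579 down-regulated genes among 17847, with all 945 edgeR DEGs among them, and leaving out PT-14 or PT-18, both non-malignant, lowered the up-regulated DEGs to 313 or 319. Without PT-1 and PT-8, the tumours least like the others, 689 up-regulated and 502 down-regulated DEGs were called.

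KLK2 held a much larger share of the library in non-malignant than in malignant tissue, and measures of how few genes fill a library moved with it. In non-malignant tissue, the single most abundant gene took 15.7% of the counts at the lowest (PT-17), 39.3% at the median and 48.2% at the highest (PT-12). In malignant tissue, it took 0.862% at the lowest (PT-7), 1.66% at the median and 4.34% at the highest (PT-3). KLK2 was the most abundant gene in all 9 non-malignant libraries, whereas 6 different IDs led the 9 malignant libraries and the most frequent of them led 3. The groups did not overlap, and the mean shares differed by -31.5 percentage points (p = 4.11e-05 by a two-sided exact permutation of 9 against 9, which can give no smaller value; adjusted p = 5.14e-05 over 5 measures).

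Measures over more genes, KLK2 included, also kept the groups apart. The 10 most abundant genes held 22.8% to 54.0% of the counts in non-malignant tissue (median 45.5%) and 5.89% to 13.0% in malignant tissue (median 7.46%). The number of genes needed to reach 50% of the counts ranged from 3 in PT-12 to 349 in PT-17 among non-malignant tissues (median 38) and from 412 in PT-4 to 947 in PT-1 among malignant tissues (median 691). All 9 malignant tissues needed more genes than any non-malignant tissue, by a small margin between PT-4 (412) or PT-3 (456) and PT-17 (349), and with KLK2 left out the ranges overlapped (412 to 947 in malignant and 183 to 719 in non-malignant tissue). These measures and the share of the 100 most abundant genes (means 54.2% in non-malignant and 24.9% in malignant tissue) did not overlap between the groups and gave the same adjusted p of 5.14e-05 (two-sided exact permutation tests, 9 against 9). The number of IDs detected at an equal depth of 4258267 counts overlapped, with medians of 16523 in malignant and 16208 in non-malignant tissue (adjusted p = 0.146, two-sided exact permutation test). Without PT-17, the non-malignant library with the most IDs, the difference in IDs was 705.3 in place of 502.6 and passed (adjusted p = 0.0215, two-sided exact permutation test, 9 against 8). With KLK2 left out of the counts, the difference in IDs turned to -121 and did not pass (adjusted p = 0.666, two-sided exact permutation test, 9 against 9).

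**Figure D2:**
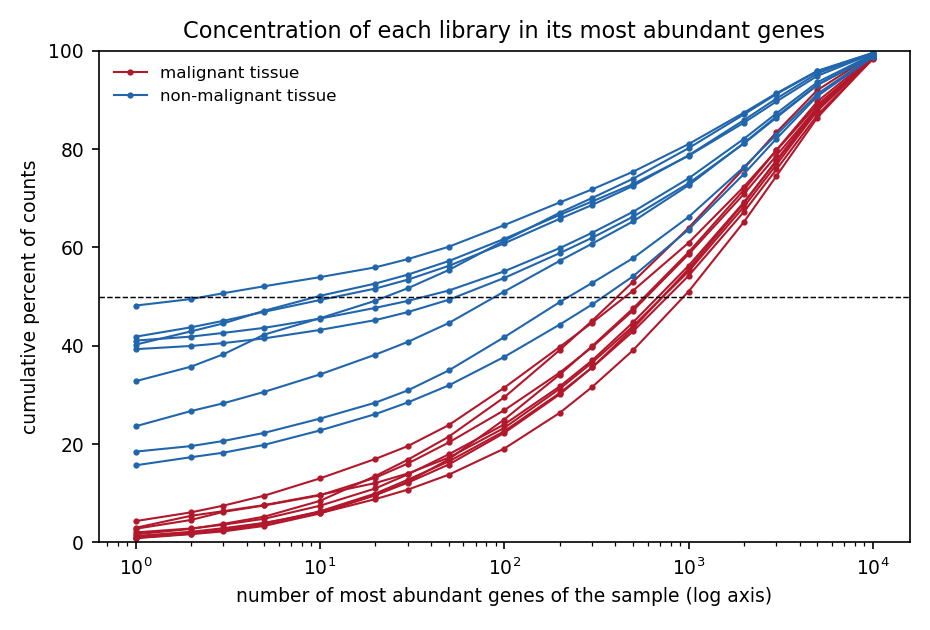
Cumulative percent of counts on genes (y axis, dashed line at 50%) against the number of most abundant genes of the sample (x axis, log axis), with 1 line for each of the 9 malignant (red) and 9 non-malignant (blue) tissues. Non-malignant lines start between 15.7% and 48.2%, and malignant lines start between 0.862% and 4.34%.

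The groups overlapped without KLK2. With KLK2 left out of the counts, the most abundant gene held a median of 2.57% in non-malignant and 1.66% in malignant tissue, and none of the 5 measures kept the groups apart. The mean share of the 100 most abundant genes was then 31.3% in non-malignant and 24.9% in malignant tissue (adjusted p = 0.0704, two-sided exact permutation test, 9 against 9). The membership of the 10 most abundant genes, again with KLK2 left out, is given as a description without a test. Pairs of non-malignant libraries shared 5 to 9 of these genes (median 7 over 36 pairs), and pairs of malignant libraries shared 1 to 6 (median 3 over 36 pairs). A total of 20 IDs were among the 10 most abundant genes of any non-malignant library, 5 of them in all 9, against 38 IDs in malignant tissue, 1 of them in all 9.

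The DEGs were also described by their summed share of the library, without a test, since they were called on the same samples. Down-regulated DEGs held 23.5% to 54.1% of the counts in non-malignant tissue (median 45.1%) and 1.31% to 2.01% in malignant tissue (median 1.37%). The 455 down-regulated DEGs other than KLK2 held a mean of 6.34% of all counts on genes in non-malignant tissue (5.33% to 7.80%) and 1.44% in malignant tissue (1.31% to 2.01%). Up-regulated DEGs held 0.343% to 0.834% in non-malignant tissue (median 0.582%) and 4.97% to 8.45% in malignant tissue (median 6.98%). KLK2 alone, with a mean of 33.5% in non-malignant tissue, made up most of the share of the down-regulated DEGs, and the mean of 6.34% for the others in non-malignant tissue stood beside a mean of 6.79% for up-regulated DEGs in malignant tissue. With KLK2 taken out of the total as well, these means were 9.67% and 6.79%. PT-8 had the lowest share of up-regulated and the highest share of down-regulated DEGs among the tumours.

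**Figure D3:**
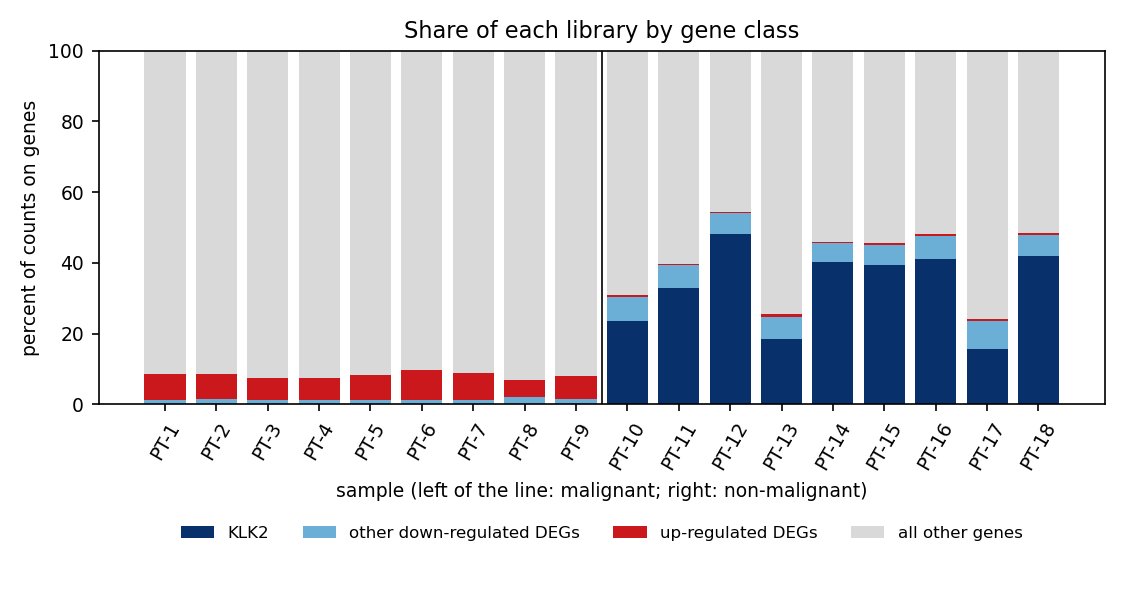
Percent of the counts on genes (y axis, stacked bars) in each of the 18 tissues (x axis), divided into KLK2, the other down-regulated DEGs, the up-regulated DEGs and all other genes. KLK2 fills 15.7% to 48.2% of the non-malignant bars and is not visible in the malignant bars, where up-regulated DEGs reach 4.97% to 8.45%.

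Gene names could be paired with 13 IDs, those of 8 cancer-related genes and 5 globin genes. The study singled out the cancer-related genes on these same samples, so their directions are not independent evidence. Of the 8, 3 were down-regulated DEGs, 4 were up-regulated DEGs and 1 (MYC) missed the threshold with edgeR. Over all genes tested, 3.75% were down-regulated and 4.03% up-regulated DEGs, and the median log2 fold change was 0.12. Expression is given as CPM on the library size scaled by TMM, and each fold change carries its standard error (SE).

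The secretory genes KLK2, KLK4 and ACPP fell in malignant tissue. KLK2, the canine prostate-specific esterase gene, made up 5.40e-05% of the counts in PT-1, 0.000847% at the median and 0.0657% in PT-9 among malignant tissues, against a median of 39.3% in non-malignant tissue. In counts, this was 3 reads in PT-1 and 2928 reads in PT-9, and the next highest share was 0.00440% (PT-6). No tumour came near the lowest non-malignant value, that of PT-17, which was also the tissue with the highest share of reads assigned to no gene. The log2 fold change was -12.70 (SE 1.71, edgeR, FDR = 5.89e-06), and it was -15.30 without PT-9 (FDR = 1.66e-07). The FDR of KLK2 lay close to the threshold, and leaving out any of the tissues other than PT-1, PT-8 and PT-9 raised it above 0.00001, to 1.98e-05 at the most, with fold changes between -12.87 and -12.53. It was also above 0.00001 with no filter on low counts (log2 fold change -12.66, edgeR, FDR = 2.03e-05). The same held without both PT-1 and PT-8 (log2 fold change -12.36, edgeR, FDR = 1.09e-05).

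KLK4, a kallikrein protease made by the prostatic epithelium and in developing tooth enamel, had 168 CPM at the lowest, 397 CPM at the median and 564 CPM at the highest in non-malignant tissue. In malignant tissue, the values were 0.128 CPM in PT-7, 1.5 CPM at the median and 5.06 CPM in PT-5. The groups were far apart, and the tumour with the most KLK4 was not the tumour with the most KLK2. KLK4 had a log2 fold change of -7.86 (SE 0.56, edgeR, FDR = 5.50e-09).

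ACPP encodes prostatic acid phosphatase, a secreted enzyme long used as a marker of prostatic origin. It ranged from 74.5 CPM (PT-13) to 451 CPM (PT-12) in non-malignant tissue (median 129 CPM) and from 0.588 CPM (PT-1) to 17.6 CPM (PT-8) in malignant tissue (median 2.62 CPM). PT-8 stood above the other tumours, of which the highest was PT-7 at 5.25 CPM. ACPP had a log2 fold change of -5.32 (SE 0.60, edgeR, FDR = 9.23e-07), and it was -6.05 without PT-8 (FDR = 3.57e-08). A different tumour thus held the highest value of each of these 3 genes, namely PT-9 for KLK2, PT-5 for KLK4 and PT-8 for ACPP.

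The proliferation markers MKI67 and PCNA rose. MKI67 encodes the nuclear protein Ki-67, which is present in cycling cells and absent from resting ones. It was at 0 counts in PT-10 and PT-11, at 2.25 CPM at the median and at 4.21 CPM at the highest in non-malignant tissue, and at 14.9 CPM in PT-3, 86.0 CPM at the median and 340 CPM in PT-1 in malignant tissue. A count of 0 allows a share of up to 6e-05% in PT-10 and 5.7e-05% in PT-11 (3 counts of the library). Tumours differed among themselves by a wide margin, with PT-3, PT-9 and PT-8 at 14.9, 21.1 and 21.4 CPM and PT-1, PT-2 and PT-6 at 340, 147 and 132 CPM. For MKI67 the log2 fold change was 5.75 (SE 0.73, edgeR, FDR = 3.08e-06), and the gene crossed the threshold, to an FDR of 1.31e-05 at the most, when PT-13, PT-15, PT-16, PT-17 or PT-18 was left out.

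PCNA, the sliding clamp that holds DNA polymerase on the template during replication, was more even. It ranged from 8.77 to 24.2 CPM in non-malignant tissue (median 16.2 CPM) and from 39.2 CPM in PT-8 to 121 CPM in PT-1 in malignant tissue (median 77.6 CPM). The groups did not overlap, and PT-1 and PT-2 held the highest values of both proliferation markers. Its log2 fold change was 2.28 (SE 0.24, edgeR, FDR = 4.84e-07).

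Among the genes of signalling and transcription, CTNNB1 and PMEPA1 rose, and MYC missed the threshold of 0.00001 with edgeR but passed it with DESeq2. CTNNB1 encodes beta-catenin, which links cadherins to the cytoskeleton and carries Wnt signals to the nucleus. Its values were 150 CPM at the lowest, 211 CPM at the median and 324 CPM (PT-13) at the highest in non-malignant tissue, and 269 CPM (PT-1), 1122 CPM and 1953 CPM (PT-7) in malignant tissue. It was the named DEG with an overlap, since PT-1 lay below PT-13, while the other 8 tumours were at or above 502 CPM. CTNNB1 had a log2 fold change of 2.45 (SE 0.32, edgeR, FDR = 3.73e-06). Leaving out any non-malignant tissue other than PT-13 raised the FDR above the threshold, to 1.54e-05 at the most, and leaving out PT-1 lowered it to 3.22e-07. In intact dogs alone, the log2 fold change of CTNNB1 was 1.49 with edgeR (FDR = 0.00338) and 1.52 with DESeq2 (FDR = 0.000359), and with reproductive status as a term it was 1.45 (edgeR, FDR = 0.00178), each above the threshold. With DESeq2 it passed in all 18 tissues (FDR = 7.03e-15) but not in the 7 malignant and 4 non-malignant tissues whose deposited files share a name prefix (FDR = 1.98e-05).

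PMEPA1 encodes a membrane protein that is induced by androgens and by TGF-beta and dampens signalling through both. It had 3.69 to 18.3 CPM in non-malignant tissue (median 9.39 CPM) and 73.9 CPM (PT-8) to 341 CPM (PT-6) in malignant tissue (median 129 CPM). Every tumour was above every non-malignant tissue by a clear margin. Its log2 fold change was 4.2 (SE 0.36, edgeR, FDR = 4.51e-08).

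MYC encodes a transcription factor that drives growth and ribosome production. It ranged from 24.3 to 58.3 CPM in non-malignant tissue (median 43.7 CPM) and from 70.9 CPM (PT-6) to 202 CPM (PT-7) in malignant tissue (median 111 CPM). The groups did not overlap, although the change was the smallest of the 8 genes in the full comparison, with a log2 fold change of 1.51 (SE 0.22, edgeR, FDR = 1.36e-05). With reproductive status as a term, CTNNB1 changed less than MYC (1.45 against 1.61, edgeR). The same was seen in intact dogs alone (1.49 against 1.66, edgeR). MYC was below 0.00001 without PT-6 (FDR = 9.02e-06) and with DESeq2 (FDR = 2.25e-10).

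Of the globin genes, which mark red blood cells in a sample, HBA1, HBA2 and HBB were tested and did not pass. HBA1 had medians of 6.58 CPM in non-malignant and 2.59 CPM in malignant tissue, with ranges of 0.208 to 15.8 CPM and 0 to 35.7 CPM. HBB had medians of 9.98 CPM and 3.52 CPM, and its log2 fold change of 0.059 (SE 0.84, edgeR, FDR = 0.956) turned negative in 7 of the 18 fits that left out 1 tissue (PT-4, PT-5, PT-7, PT-10, PT-13, PT-15 and PT-17). The 5 globin genes together took at most 0.0142% of the counts of any tissue (PT-5), and their mean shares were 0.00415% in malignant and 0.00202% in non-malignant tissue (two-sided exact permutation test, p = 0.257, 9 against 9). PT-4, PT-5 and PT-7 held the highest globin values among the tumours. HBA1 and HBA2 are near-identical copies whose reads cannot be assigned with certainty, and HBD and HBM were removed by the filter on low counts. HBD had 24 counts in malignant and 12 in non-malignant tissue. HBM had 43 counts in 7 of 9 malignant tissues and 3 counts in 2 of 9 non-malignant tissues, a ratio of 8.71 with a 95% exact binomial interval for counting error from 2.79 to 43.9, which leaves out the spread between dogs.

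**Figure D4:**
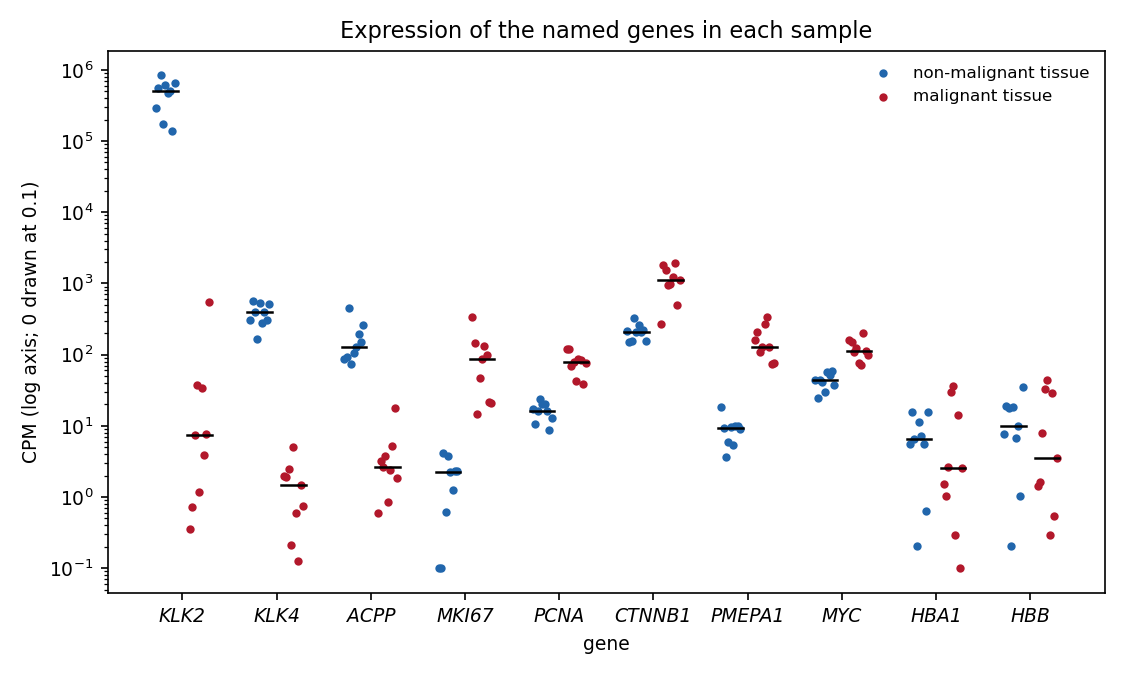
Expression in CPM (y axis, log axis, 0 drawn at 0.1) of 10 named genes (x axis) in each of the 9 non-malignant (blue) and 9 malignant (red) tissues, with 1 point for each tissue and a black bar at the group median. KLK2, KLK4 and ACPP lie lower and MKI67, PCNA, PMEPA1 and MYC higher in all malignant tissues, CTNNB1 overlaps in 1 tumour, and the globin genes HBA1 and HBB overlap broadly.

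A set of 4 IDs without a name was taken by a fixed rule, to show the extremes of fold change and of library share outside the named genes. The choice was made among unnamed DEGs without overlap and with a mean of at least 1 CPM. ENSCAFG00000023615 had the largest fold change among up-regulated DEGs. It had 1 count in all non-malignant tissues together, in PT-17, and 23 counts (PT-1) to 1330 counts (PT-6) in malignant tissue (median 257 counts). The ratio of the summed and scaled counts was 1855, with a 95% exact binomial interval for counting error from 333 to 73294. The fitted value (9.96 on the log2 scale, edgeR, FDR = 1.20e-07) depends on the default prior count of the edgeR fit, not on that of log2 CPM. Without PT-17, the FDR was 3.43e-05.

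ENSCAFG00000039539 had the largest fold change among unnamed down-regulated DEGs without overlap. It had 115 counts (PT-17) to 1827 counts (PT-11) in non-malignant tissue (median 510 counts) and 2 counts in all malignant tissues together, 1 in PT-4 and 1 in PT-5. The ratio of non-malignant over malignant tissue was 5194, with an interval from 1437 to 42898 (exact binomial, 95%), and the fitted log2 fold change was -11.73 (edgeR, FDR = 9.94e-09). PT-13 and PT-17, which held the least KLK2 among the non-malignant tissues, also held the least of this gene.

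Measured by library share, ENSCAFG00000017553 gained most among the unnamed DEGs without overlap. It rose from a mean of 0.00813% of the counts in non-malignant tissue to 0.312% in malignant tissue, where PT-1 was lowest at 0.0593%, the median was 0.283% and PT-9 was highest at 0.782%. PT-10, at 0.0285%, was the highest non-malignant tissue, and the groups did not overlap. The log2 fold change was 4.76 (SE 0.62, edgeR, FDR = 4.06e-06), and leaving out any of PT-11 to PT-18 raised the FDR above 0.00001, to 1.69e-05 at the most. ENSCAFG00000007419 lost most, from 0.649% to 0.00160% on average, with a lowest non-malignant value of 0.157% (PT-17) and a highest malignant value of 0.00602% (PT-3). Its log2 fold change was -9.47 (SE 0.89, edgeR, FDR = 1.16e-07). With reproductive status as a term (edgeR), the FDR was above the threshold for ENSCAFG00000007419 (7.24e-05), ENSCAFG00000017553 (8.37e-05) and ENSCAFG00000039539 (1.98e-05). Their log2 fold changes were then -10.34, 4.66 and -11.38. ENSCAFG00000023615 still passed under that term (edgeR, FDR = 3.33e-06), with a log2 fold change of 8.31.

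Malignant tissues were more unlike each other than non-malignant tissues were. The malignant group joined neutered and intact dogs, whereas every control dog was intact. Spread that goes with diagnosis and spread that goes with mixed reproductive status can therefore not be told apart. For each sample, the distance to the rest of its group was computed as the root mean square difference of log2 CPM from the mean of the other 8 samples, over all genes tested. The distance was 0.62 (PT-2) at the lowest, 0.90 at the median and 1.39 (PT-1) at the highest in malignant tissue, and 0.56 (PT-14), 0.74 and 0.88 (PT-10) in non-malignant tissue. PT-1, PT-8 (1.2), PT-4 (1.09), PT-5 (0.91) and PT-7 (0.90) exceeded all non-malignant tissues, and the remaining 4 tumours lay within their range. The mean distances of 0.97 and 0.72 differed by 0.25 (two-sided exact permutation test, p = 0.00576, 9 against 9). Without PT-1 and PT-8, the difference was 0.15 (p = 0.0265, two-sided exact permutation test, 7 against 9), and without PT-14 among the single tissues p was highest, at 0.0179. In each of these tests, the distances were computed once with the true groups and then permuted. Each distance depends on the other samples of its group, so the distances are not independent. None of these p-values is therefore exact for the spread between dogs.

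The tumours farthest from the rest, PT-1, PT-8 and PT-4, were those of the 3 intact dogs. This was seen after the distances were known and was not tested, and the mean of the other 8 tumours holds more neutered than intact dogs by design. The 3 intact tumours were not like each other, with correlations of log2 CPM over genes of 0.630 (PT-1 and PT-4, the lowest of all 36 malignant pairs), 0.675 (PT-1 and PT-8) and 0.718 (PT-4 and PT-8). Over all 36 malignant pairs the median was 0.807 and the highest value 0.911, between PT-4 of an intact and PT-9 of a neutered dog, and over the 36 non-malignant pairs the values ran from 0.852 to 0.951. Genes, over which these correlations run, do not count as independent replicates.

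The tumours also differed in how far they lay from non-malignant tissue. The distance to the mean of the 9 non-malignant tissues was 1.62 in PT-8 at the lowest, 1.79 at the median and 2.10 in PT-1 at the highest, whereas a non-malignant tissue lay at most 0.88 from the mean of the others. PT-1 and PT-8 thus stood at opposite ends of this scale while both were far from the other tumours. In PT-8, 469 of the 489 up-regulated DEGs were above every non-malignant tissue and their median difference from the non-malignant mean was 2.21 on the log2 scale, against 480 to 489 genes and 3.04 to 3.66 in the other tumours. The down-regulated DEGs were more even, with 449 to 456 of 456 below every non-malignant tissue and median differences from -2.88 (PT-1) to -2.22 (PT-8). The DEGs were chosen on these samples, so these values describe the tumours and test nothing.

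**Figure D5:**
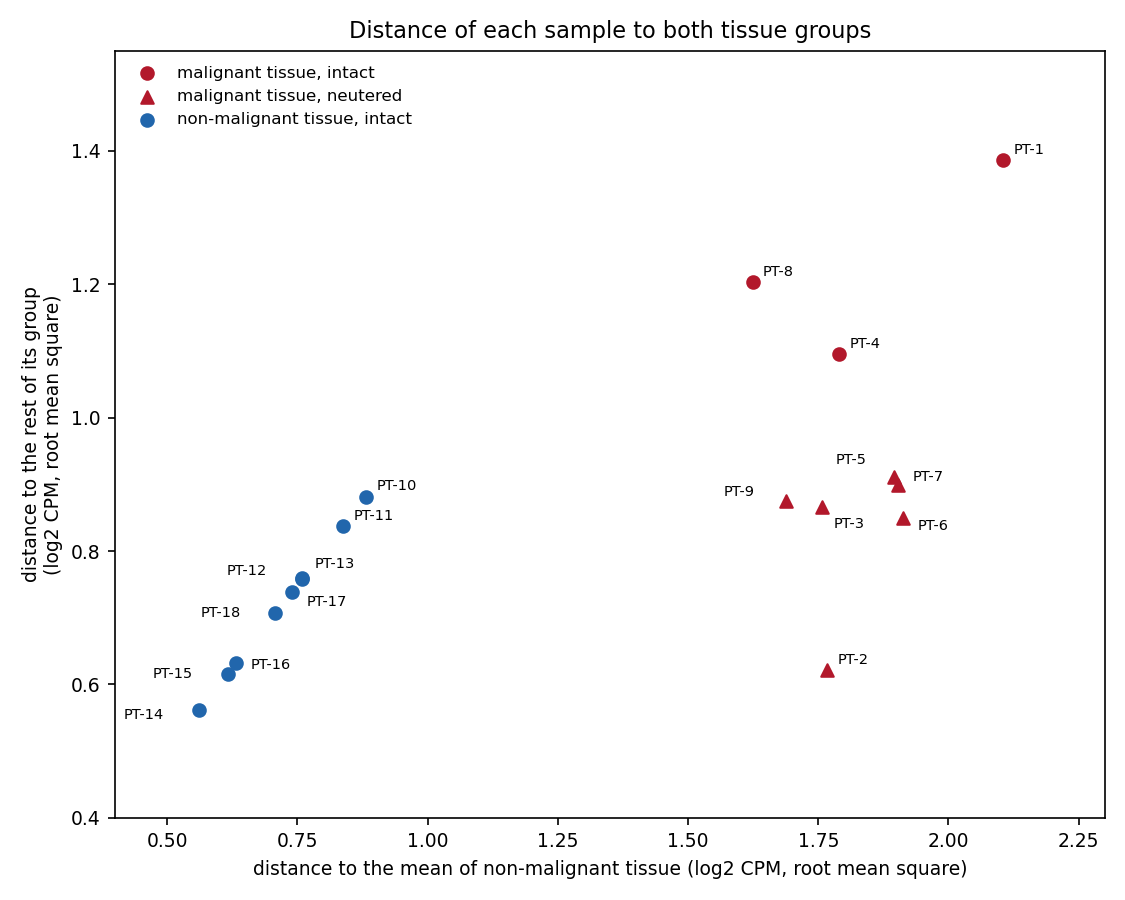
Distance of each tissue to the mean of non-malignant tissue (x axis) and to the rest of its own group (y axis), both as the root mean square difference of log2 CPM over the genes tested. Circles are intact and triangles neutered dogs, with malignant tissue in red and non-malignant tissue in blue, for which both distances are the same by definition. All tumours lie at 1.62 or more on the x axis, and the intact dogs PT-1, PT-8 and PT-4 are highest on the y axis.

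The spread was wider for most genes, and few single genes passed a test of spread, which has low power with 9 tissues in each group. Few calls therefore do not show that few genes differed in spread. The standard deviation of log2 CPM was larger among malignant than among non-malignant tissues for 8133 genes (67.0% of 12144), with medians of 0.64 and 0.52. The mean absolute deviation from the group mean was larger in malignant tissue for 65.9% of genes, and for 59.1% without PT-1 and PT-8. Its median over genes in malignant tissue was 0.522, and 0.479 without PT-1 and PT-8, against 0.426 in non-malignant tissue. A Levene-type test with limma on the absolute deviations from the group mean called 23 genes (0.189%) more variable and 7 genes less variable in malignant tissue at an FDR under 0.05. These counts include ENSCAFG00000023615 and ENSCAFG00000039539, each near 0 counts in 1 group, where the prior count sets the spread, so that their calls carry no information on spread. At an unadjusted p under 0.05, the numbers were 1678 and 328. The count of 23 was unstable, since leaving out any tissue except PT-6 moved it by more than 1.5 times, to 52 to 199 without a tumour other than PT-6 and to 3 to 12 without a non-malignant tissue, and deviations from the group median gave 2 genes. No gene was called among the 5200 genes whose level had an FDR of 0.05 or more, where 757 genes had an unadjusted limma p under 0.05 in the direction of malignant tissue.

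Among the named genes, KLK2 had an SD of log2 CPM of 3.02 among malignant and 0.89 among non-malignant tissues, and CTNNB1 had 0.92 and 0.36, but neither passed the limma test (FDR = 0.128 and 0.248). MYC and PCNA, with 0.49 and 0.56 among malignant and 0.42 and 0.46 among non-malignant tissues, were more even (limma, FDR = 0.826 and 0.891). High expression in a single tumour was another form of spread, described without a test by a rule chosen after the values were seen. A total of 23 genes had at least 10 CPM in 1 tumour and at least 8 times the value of each of the other 17 tissues, of which 9 were in PT-8, 5 in PT-5, 4 in PT-3 and 3 in PT-1, and no non-malignant tissue had such a gene.

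Reproductive status was compared within the malignant group, since it differs between the diagnoses. Between 6 neutered and 3 intact dogs, edgeR called 0 of 13375 genes (0%) at an FDR under 0.05, and 630 genes, under 5% of those tested and no more than chance alone can give, had an unadjusted p under 0.05. In the same samples, DESeq2 called 19 of 13638 genes at an FDR under 0.05. A comparison of 6 against 3 tumours has low power, and the SE of KLK2 was 2.21 on the log2 scale (edgeR). Few calls therefore do not show that few genes differed with reproductive status. For CTNNB1, the difference of neutered minus intact dogs was 1.3 on the log2 scale (SE 0.50, edgeR, FDR = 0.981), which did not pass the test. The log2 differences of the other 7 cancer-related genes ran from -1.46 for ACPP to 2.70 for KLK2, each with an FDR of 0.981 or more (edgeR).

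With intact dogs alone (3 malignant and 9 non-malignant tissues), edgeR called no DEG at an FDR under 0.00001, although 2782 genes were higher and 1965 lower at an FDR under 0.05 and 6193 of 13191 genes had an unadjusted p under 0.05. DESeq2 called 558 up-regulated and 467 down-regulated DEGs in the same samples. The share of the most abundant gene differed by -31.5 percentage points in intact dogs (adjusted p = 0.00568, two-sided exact permutation test, 3 against 9). Before adjustment, this test can give no p below 0.00455. The comparison of intact dogs uses the same non-malignant tissues as the full one. In this comparison, the log2 fold change was -14.89 for KLK2 (FDR = 0.000229) and 6.22 for MKI67 (FDR = 0.000128), both with edgeR. Both genes passed the threshold with DESeq2, at -14.85 for KLK2 (FDR = 4.99e-76) and 6.25 for MKI67 (FDR = 6.03e-10). With reproductive status as a term in the fit of all 18 tissues, 96 up-regulated and 21 down-regulated DEGs were called, 116 of them among the 945 of the full comparison, including KLK4 and PMEPA1 but not KLK2, ACPP, MKI67, PCNA or CTNNB1, whose FDR (edgeR) ran from 2.17e-05 to 0.00178. The log2 fold changes under that term were -14.93 for KLK2, -4.54 for ACPP, 6.18 for MKI67 and 2.28 for PCNA, against -12.70, -5.32, 5.75 and 2.28 without it, and that of CTNNB1 was 1.45 against 2.45. That term leaves the contrast of diagnoses to the 3 intact tumours, and the part of neutering in the fold changes of the full comparison was not tested further. With age as a covariate, 235 up-regulated and 319 down-regulated DEGs were called, and KLK2, MKI67 and CTNNB1 moved above the threshold (edgeR, FDR = 1.54e-05, 2.03e-05 and 4.99e-05) with log2 fold changes of -12.65, 5.74 and 2.35 that stayed close to those without age.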

How the data were processed

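RNA-Seq libraries of canine prostate tissue were analysed. Per the submitters' notes and the methods of the study, the authors trimmed the reads with Trimmomatic 0.32, mapped them to CanFam3.1 with TopHat2 and deposited raw read counts per Ensembl ID from HTSeq. Each file lists 32220 IDs, of which 23291 had a count in tissue. The study describes its counts as those of protein-coding genes, but all listed IDs were used here, without a selection by gene type. Tallies that name no gene were dropped, namely reads assigned to no gene (58.8% to 68.8%) and ambiguous reads (0.186% to 0.420%). HTSeq ran with default options, which use the strand, and the methods of the study name the library kit without stating whether it marks the strand. If it does not, reads within genes may be among those assigned to no gene. Reads of a gene and of an antisense or overlapping partner could then not be told apart. Neither point was tested.

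Low counts were filtered with filterByExpr (minimum count 10, minimum total 15). Tests used R 4.3.3, edgeR 4.0.16 (TMM, quasi-likelihood), limma 3.58.1 and DESeq2 1.42.0 as an alternative, and the scripts were tested on simulated data. There, the test of spread at first fell short of its target and met it only after the simulated difference in spread was made larger, and even then it missed many of the changed genes, so that it also misses large differences. Log2 CPM had a prior count of 2, and the SE was derived from the fold change and the F statistic. Exact permutation tests ran under SciPy 1.17.1 and NumPy 2.4.6 in Python 3.11.15, with pandas 2.3.3 for tables, and matplotlib 3.10.9 drew the figures. Intervals cover counting error only.

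The members and lists were chosen with earlier results of these data known. Named genes were all IDs paired with a name by the study, and 4 unnamed DEGs without overlap and with a mean of at least 1 CPM, chosen by the largest fold change and library share in each direction. Other gene lists were not used, since the reference table available here matched none of the IDs. One gene of the set is not reported here. The check without PT-1 and PT-8, the DESeq2 fits of subsets, the shares of DEGs without KLK2, the test of spread in subsets of genes, and the counts of genes high in a single tumour were added after the data were seen.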

Additional observations from a re-analysis of the deposited data

Results flagged for a closer look

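In 80 sets of 9 values, 6 had a highest or lowest sample that lay far from the others relative to the range of its group, where chance gives about 1 in 20. The 6 are not separate findings, since 2 of them are the same share with and without KLK2 and 1 rests on a single count beside 8 tissues at 0. PT-9 held 0.0657% of its counts in KLK2, far above the other tumours. The log2 CPM of KLK2 in malignant tissue was also among the 80 sets and was not flagged. PT-8 held 2.01% of its counts in down-regulated DEGs, and 2.01% without KLK2, above all other tumours, and its median difference of up-regulated DEGs from the non-malignant mean, 2.21 on the log2 scale, was the lowest. Among non-malignant tissues, PT-17 was lowest for ENSCAFG00000007419 (log2 CPM 10.45) and was alone in having a count for ENSCAFG00000023615 (log2 CPM -0.77, from 1 count). Reads that the counting assigned to no gene were also most frequent in PT-17, at 68.8%, and their part in these values was not tested.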

How the results depend on the processing

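The number of DEGs (489 up-regulated and 456 down-regulated) moved with the tool, the threshold and the samples. It was 2019 and 1579 with DESeq2, 3832 and 3112 at an FDR under 0.05, 0 and 0 in intact dogs alone, 96 and 21 with reproductive status as a term, and 235 up-regulated DEGs with age as a covariate. The samples whose deposited files share a name prefix (7 malignant, 4 non-malignant) gave 0 and 2 DEGs with edgeR (2693 and 2117 at an FDR under 0.05, 6276 genes at an unadjusted p under 0.05) and 641 and 573 with DESeq2. These subsets hold fewer samples, and otherwise the cause was not tested. Leaving out 1 tissue gave 313 to 618 up-regulated and 321 to 527 down-regulated DEGs. Other size factors, KLK2 left out before TMM and no filter on low counts stayed within 1.5 times.

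With KLK2 left out of the counts, malignant minus non-malignant differences were -0.754, -4.03 and -6.45 percentage points for the 1, 10 and 100 most abundant genes and 176.7 for the genes that hold 50% of counts, and none passed the test (adjusted p from 0.0704 to 0.281). The difference in IDs detected at equal depth turned from 502.6 to -121, neither past the test, and ran from 346.1 to 705.3 with 1 tissue left out, where it passed without PT-17. With KLK2 out of both the DEGs and the total, the mean share of up- and down-regulated DEGs in non-malignant tissue became 0.856% and 9.67%. The distance between samples of a group stayed larger in malignant tissue under all alternatives. The genes more variable among tumours numbered 2 with the group median and 90 with a prior count of 5. Genes of at least 10 CPM in each group gave 7, and genes whose level had an FDR of 0.05 or more gave 0. The number was 65 without PT-1 and PT-8, and 3 to 199 with 1 tissue left out.

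The sign held in every setting for the named genes except the globins. HBB was -0.12 in intact dogs (-0.081 with DESeq2), -0.17 with reproductive status as a term and -0.42 to 0.40 with 1 tissue left out, where HBA1 ran from -0.22 to 0.56 and HBA2 from -0.20 to 0.65. Depth limits the genes with few counts, such as the globins.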
